A study of Mus musculus with 4 samples.

Results

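Histone variants and the proteins that process or carry histones were followed in mouse blastocysts as 10 genes, taken by symbol from 20714 gene symbols listed in both RNA-seq and Ribo-seq. They comprised 6 histone variants (H2afz, H2afx, H2afy, H3f3a, H3f3b, and Cenpa), 1 histone pre-mRNA processing factor (Slbp), and 3 histone chaperones (Asf1a, Asf1b, and Chaf1a). Each gene was listed once in all 4 libraries. RNA-seq (polyA RNA, Smart-Seq2) gave the mRNA level and Ribo-seq (total RNA, digested with RNase I) gave the level of ribosome protected fragments (RPF), with 2 replicate libraries per assay. All libraries came from untreated WT blastocysts of C57BL/6J females, 4 weeks old, mated with PWK/PhJ males; the strain label reads C57BL/6N x PWK instead. Embryos were taken at the 8-cell stage, grown to blastocysts in KSOM, and freed of the zona pellucida, and no other treatment or stage was compared here. Whether the replicates came from separate embryo collections is not stated in the labels, so the p-values measure only the spread between these libraries, which may be technical.

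Replication-dependent histones are made in S phase from mRNAs that lack introns and, as a rule, a poly(A) tail, and that end in a stem-loop bound by SLBP. Histone variants are typically encoded by single polyadenylated genes outside the histone clusters and can be made throughout the cell cycle. H2A.Z (H2afz) marks promoters, H2A.X (H2afx) is phosphorylated at DNA breaks, macroH2A1 (H2afy) carries a large macrodomain, H3.3 (H3f3a and H3f3b) replaces H3 outside S phase, and CENP-A (Cenpa) marks centromeres. ASF1A and ASF1B hand H3-H4 dimers to CAF-1, whose large subunit is CHAF1A, and to HIRA. In early embryos, chromatin is rebuilt through successive divisions, and both kinds of histone are needed.

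A pair of sequence sets bears on the values that follow. The first set shows which member carries a histone stem-loop, searched on the transcript strand of annotated 3′ UTRs as the histone stem-loop consensus, with the 16-base stem-loop in capitals. H2afx was the only one of 9 members with an annotated 3′ UTR to hold it (Chaf1a had no such UTR in the transcript used). It lay on chromosome 9 from 44143323 to 44143338 (NCBIM37, plus strand), 46 bases after the stop codon and 816 bases before the annotated transcript end. The 3 replication-dependent histone genes with the highest mRNA level among those with a stem-loop are set beside it.
H2afx: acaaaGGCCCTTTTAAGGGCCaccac
Hist1h4d: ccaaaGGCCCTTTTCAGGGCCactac
Hist1h2ae: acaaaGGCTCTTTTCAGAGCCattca
Hist1h2ag: acaaaGGCTCTTTTCAGAGCCacct
In Hist1h4d and Hist1h2ag, the annotated transcript ended 25 and 4 bases after the stem-loop, and in Hist1h2ae 151 bases after it. Across the annotation, 45 of 56 genes with a Hist symbol (80.4%) held the consensus, compared with 16 of 19762 other genes (0.0810%). A match is a description of these letters and not of SLBP binding.

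The second set shows how the coding sequences of H3f3a and H3f3b, which encode the same protein, differ on the scale of a footprint. The first 60 coding bases of each are given, with differing bases in capitals.
H3f3a: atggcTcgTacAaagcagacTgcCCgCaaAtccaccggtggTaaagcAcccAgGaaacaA
H3f3b: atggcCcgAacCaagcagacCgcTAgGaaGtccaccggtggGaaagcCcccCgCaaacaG
Over all 411 coding bases, 95 differed (76.9% identity), and 83 of 137 codons differed, whereas 0 of 136 residues did. The longest run that they shared was 23 bases, so 0 of 384 windows of 28 bases, about the length of a footprint, was common to both. Shorter reads, and the mismatches that the authors allowed in mapping, were not examined.

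The gene models set how well each value could be assigned. On NCBIM37, the assembly of mm9, H2afx (chromosome 9, 44142798 to 44144154) is a single exon, like replication-dependent histone genes. In its coding sequence, 31.6% of 28-base windows also occurred in coding sequences of other genes, mostly replication-dependent H2A genes such as Hist1h2ab and Hist1h2ac, and 68.4% occurred at 1 place in the genome. H2afz (chromosome 3, 137527451 to 137529886, 5 exons) had windows at a median of 3 genome places, with 0 windows in other annotated coding sequences. H3f3b (chromosome 11, 115883226 to 115889276, 6 exons) had a median of 2 places, also with 0 windows in other coding sequences. H3f3a (chromosome 1, 182730963 to 182744074, 4 exons) was the least distinct member. Its windows occurred at a median of 15 places, and 24.7% occurred at more than 20, the number of places per read that the authors allowed. Of its windows, 83.3% also occurred in annotated coding sequences of Gm10257 or Gm6132, for which no values were used here. The pseudogene H3f3c (chromosome 2, 119491362 to 119491772), which has its own row in the deposited files, was 99.0% identical to the H3f3a coding sequence and held 311 of its 384 windows, compared with 0 for H3f3b. Reads of H3f3a and H3f3c therefore could not be fully separated.

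The other members were more distinct. H2afy (chromosome 13, 56174980 to 56237722, 9 exons), Cenpa (chromosome 5, 30969150 to 30977200, 5 exons), and Slbp (chromosome 5, 33977601 to 33995223, 8 exons) had a median of 1 place per window. The same held for Asf1a (chromosome 10, 53316767 to 53329019, 4 exons), Asf1b (chromosome 8, 86479406 to 86494096, 4 exons), and Chaf1a (chromosome 17, 56179827 to 56206973, 14 exons). Asf1a overlaps Mcm9 and Chaf1a overlaps Ubxn6 on the opposite strand, and whether the authors counted by strand is not given in the sources used here. H2afy overlaps Gm17253, and H3f3a overlaps Gm16067 and Gm17275, also on the opposite strand. The mRNA level of Mcm9 was 0.785 and 0.305 FPKM, far below that of Asf1a, whereas that of Ubxn6 was 6.99 and 7.47 FPKM, above that of Chaf1a.

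The libraries were checked in brief. Implied totals, from the steps on which low FPKM fell, were 5444800 and 5159800 fragments in RNA-seq and 533660 and 484190 in Ribo-seq. Of the tested low values, 58.4% and 57.2% in RNA-seq and 79.7% and 80.3% in Ribo-seq lay within 0.1 of a whole fragment. The RNA-seq totals are thus less sure. The paper mentions paired-end RNA-seq reads, and the fragment length assumed here was not checked for them. All 6 trophectoderm markers were above 0 in every library, with a summed level between 2779 and 3023 FPKM for mRNA and between 5321 and 5765 FPKM for RPF. Krt18 and Krt8 were the highest of them and Eomes and Tfap2c the lowest for RPF, and Cdx2 alone of the 6 had higher RPF relative to mRNA by the test described further on. Epiblast markers summed to 141.3 and 57.7 FPKM for mRNA and to 699.3 and 815.2 FPKM for RPF, with Pou5f1 and Nanog highest, Sox2 and Fgf4 lowest, and 0 of 2 tested genes past the threshold. Primitive endoderm markers summed to 12.5 and 9.34 FPKM for mRNA and to 154 and 143 FPKM for RPF, with Gata4 and Sox17 listed at 0 in RNA-seq replicate 2 and Gata6, the only one tested, having higher RPF. The RPF level of Pdgfra was 17.1 and 12.4 FPKM. Oocyte markers summed to at most 1.92 FPKM in any library, with Zp3 highest, Gdf9 low, and Bmp15 and Oosp1 listed at 0 throughout. All 5 cumulus and granulosa markers, among them Fshr, Has2, Foxl2, and Amh, were listed at 0. In RNA-seq replicate 1, Gata4 and Sox17 were at 0.05735 and 0.2041 FPKM. Their RPF levels were 14.98 and 20.17 FPKM (Gata4) and 32.70 and 27.57 FPKM (Sox17). Sox2 had 0.8890 and 0.6824 FPKM of mRNA and 37.05 and 35.39 FPKM of RPF. Fgf4 had 0.5188 and 0.3421 FPKM of mRNA and 18.45 and 5.082 FPKM of RPF. Markers of each lineage thus matched the blastocyst label in Ribo-seq. In RNA-seq, trophectoderm markers, Pou5f1, Nanog, and Gata6 matched it. Why the remaining lineage markers were so low there was not tested. As whole embryos were used, fewer cells of a type and less RNA per cell cannot be told apart.

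The levels of the members in each library are shown in the plot of FPKM. Values are FPKM (fragments per kilobase of length, scaled to the library's mapped fragments) and are set side by side between genes within an assay. For RPF, the fragment length assumed by Cufflinks shifts short genes, and the order without this effect is given with the rescaled values.

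**Figure D1:**
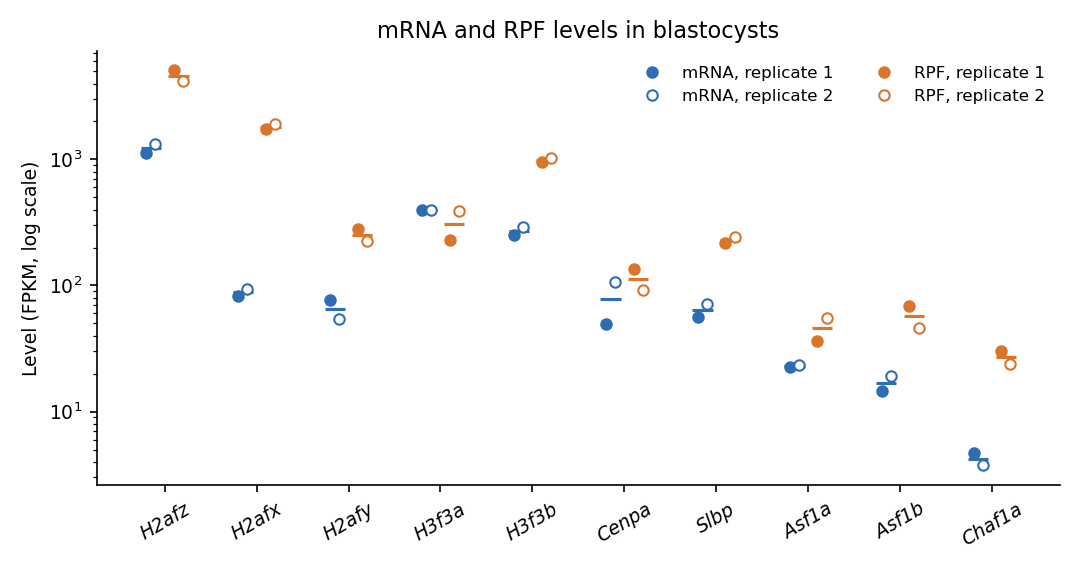
Level of each member in FPKM (log scale, vertical axis) for mRNA (blue) and RPF (orange) in replicate 1 (filled) and replicate 2 (open), with bars at the means. H2afz is highest in both assays and Chaf1a lowest, and the values of H3f3a alone lie lower for RPF than for mRNA in both replicates.

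H2afz had the highest level of all members in both assays. Its mRNA level was 1132 and 1322 FPKM in replicates 1 and 2, above 99.6% of listed genes. Its RPF level was 5074 and 4151 FPKM, above 99.7% of genes. The replicates differed 1.17-fold for mRNA and 1.22-fold for RPF, and both assays placed H2afz clear of the next member, 3.10-fold above H3f3a for mRNA and 2.53-fold above H2afx for RPF.

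H2afx changed its place between the assays. Its mRNA level was 82.5 and 94.5 FPKM. Its RPF level was 1749 and 1896 FPKM. It thus came after H2afz, H3f3a, and H3f3b for mRNA, where its range overlapped that of Cenpa, and directly after H2afz for RPF, where it overlapped no neighbour.

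H2afy, the macroH2A1 gene, was at a middle level in both assays. Its mRNA level was 76.1 and 54.6 FPKM, and its RPF level was 279 and 226 FPKM. Slbp, whose product binds the histone stem-loop, had nearly the same levels, with 55.9 and 71.4 FPKM of mRNA and 219 and 244 FPKM of RPF. The ranges of H2afy and Slbp overlapped in both assays.

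The H3.3 genes were ordered oppositely in the 2 assays. The mRNA level of H3f3a was 397.5 and 395.5 FPKM, and that of H3f3b was 252 and 292 FPKM. The RPF level of H3f3a was 229 and 388 FPKM, and that of H3f3b was 961 and 1029 FPKM. H3f3a was higher in both RNA-seq libraries and H3f3b was higher in both Ribo-seq libraries, with no overlap in either assay. The RPF level of H3f3a differed 1.69-fold between replicates, the widest gap of any member in Ribo-seq.

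Cenpa had the least stable mRNA level. It was 49.9 and 107 FPKM, a 2.15-fold gap, whereas the RPF level was 134 and 92.2 FPKM, with the replicates in the reverse order. All 4 epiblast markers were lower in RNA-seq replicate 2, in the reverse direction to Cenpa, with Nanog at 69.8 and 28.1 FPKM and Pou5f1 at 70.1 and 28.6 FPKM. Their part in the Cenpa values was not tested.

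The chaperones had the lowest levels. Asf1a mRNA was at 22.7 and 23.6 FPKM and its RPF at 36.4 and 55.1 FPKM. Asf1b mRNA was at 14.7 and 19.1 FPKM and its RPF at 69.2 and 45.7 FPKM. The 2 paralogs, whose proteins are 72.3% identical, were separated for mRNA, with Asf1a higher in both libraries, and overlapped for RPF. Chaf1a had 4.73 and 3.75 FPKM of mRNA and 30.2 and 23.8 FPKM of RPF, and was lowest in all 4 libraries as deposited.

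From the highest to the lowest, the order of mRNA levels was H2afz, H3f3a, H3f3b, H2afx, Cenpa, H2afy, Slbp, Asf1a, Asf1b, and Chaf1a, over a 290-fold range of means. The order of RPF levels was H2afz, H2afx, H3f3b, H3f3a, H2afy, Slbp, Cenpa, Asf1b, Asf1a, and Chaf1a, over a 171-fold range. In each order, 3 of the 9 neighbouring pairs overlapped. For mRNA these were H2afx with Cenpa, Cenpa with H2afy, and H2afy with Slbp. For RPF they were H3f3a with H2afy, H2afy with Slbp, and Asf1b with Asf1a.

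Short coding sequences and a shallow Ribo-seq library limit the precision of RPF values, so the footprints behind each value were worked out from the implied totals. Exact Poisson intervals at the 95% level are given, which cover counting error only.

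**Figure D2:**
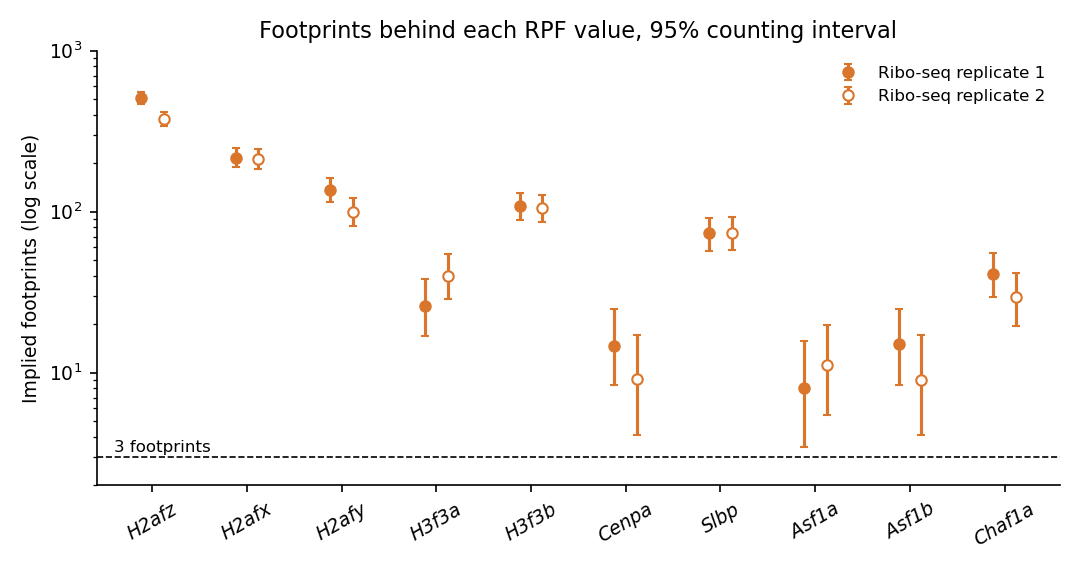
Footprints implied by the RPF value of each member (log scale, vertical axis) in Ribo-seq replicate 1 (filled) and replicate 2 (open), with 95% Poisson intervals and a dashed line at 3 footprints. H2afz rests on 511 and 379 footprints, and Cenpa, Asf1a, and Asf1b on between 8.04 and 15.1.

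H2afz rested on 511 and 379 footprints, whose intervals (468 to 557 and 342 to 419) did not overlap between the replicates. H2afx rested on 217 and 213 footprints, and H3f3b on 108 and 105. The intervals of H3f3a were wide, at 17.0 to 38.1 around 25.9 footprints and 28.6 to 54.5 around 39.8. They overlapped, so its replicates were not separated beyond counting error. The intervals of H3f3a did not overlap those of H3f3b, which began at 88.6 and 85.9 footprints. Reads of H3f3a can fit many places, so its values may not be plain counts. The same can hold for H2afx, of whose windows 31.6% also occurred in other coding sequences. It can also hold for H2afz and H3f3b, whose windows had medians of 3 and 2 places. The intervals do not cover how such reads were divided. H2afy had 137 and 100 footprints, and Slbp had 73.3 and 74.2.

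The remaining members gave few footprints. Cenpa had 14.7 and 9.18, Asf1a had 8.04 and 11.1, and Asf1b had 15.1 and 9.05. For these, intervals in FPKM spanned more than the gap between replicates, such as 15.6 to 71.3 and 27.4 to 98.1 FPKM for Asf1a. A different order of Asf1a and Asf1b in Ribo-seq was not detectable at this depth. Chaf1a, despite the lowest FPKM, had 40.9 and 29.3 footprints, since its coding sequence of 2736 bases is the longest among the members.

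The RPF level was next set against the mRNA level of the same gene. The question was which members stood higher or lower, relative to the library's median level, for RPF than for mRNA. Of all members, H2afx alone passed the test. Its RPF was 7.21-fold higher relative to mRNA after each library was centred on its median level. H3f3a had the lowest value, at 0.266-fold, and narrowly missed the threshold. The other 8 members lay between 0.534-fold and 1.89-fold, and none of them passed. Differences were fitted with limma on log2(FPKM+1) after each library was centred on its median over 8327 genes, and a gene passed at an adjusted p (Benjamini-Hochberg over these genes) under 0.05 together with a difference of 1 or more in size on the log2 scale.

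**Figure D3:**
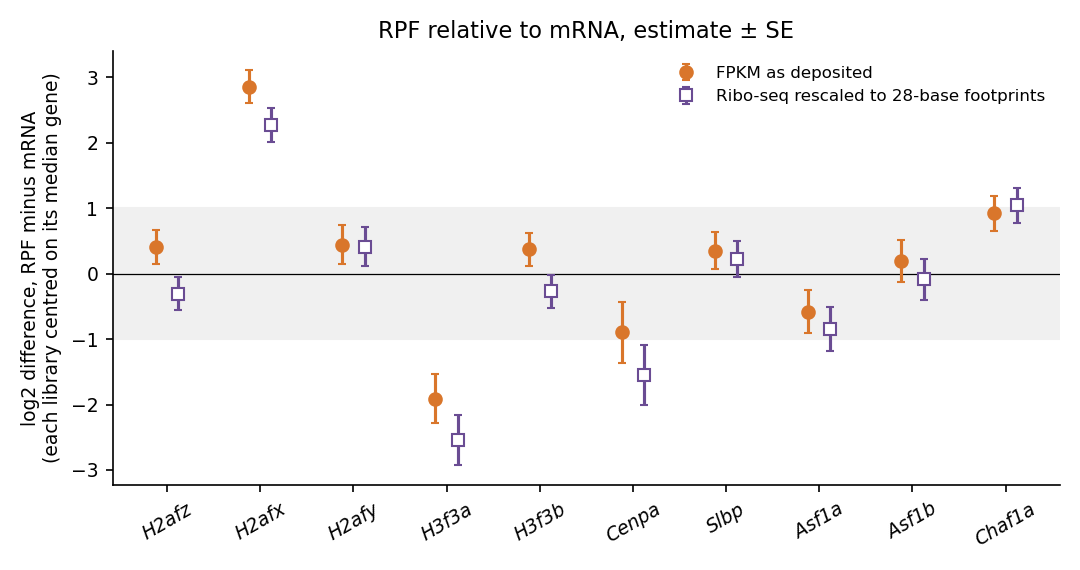
The log2 difference of RPF minus mRNA (vertical axis, estimate ± SE, n = 2 libraries per assay) of each member, with FPKM as deposited (filled) and with Ribo-seq rescaled to 28-base footprints (open). The grey band marks differences under 1 in size, and H2afx (2.85 and 2.27) and H3f3a (-1.91 and -2.55) lie outside it in both versions. Cenpa (-1.55) and Chaf1a (1.04) lie outside it only after rescaling.

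Over all genes tested, 996 passed, which is 12.0% of them, with 554 (6.65%) having higher and 442 (5.31%) lower RPF. Among the members, 1 of 10 passed in the higher direction and 0 in the lower, a share near this background; 3 members had an unadjusted p under 0.05, as did 36.3% of all tested genes. Centring mattered, as RPF exceeded mRNA by a median of 1.26 on the uncentred log2 scale, and without centring 4113 of 4178 genes that passed had higher RPF, compared with 554 of 996. Both centred Ribo-seq values lay on one side of both RNA-seq values for 9 of 10 members (all but Asf1b), compared with 67.5% of all tested genes. The median difference was 0.36 for the members and -0.24 for all tested genes. Centring used the median level of each library and not the median difference, so a difference of 0 is not that of the typical gene.

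For H2afx, the log2 difference was 2.85 (SE 0.25, adjusted p = 0.0218 with limma), and 157 of the tested genes had a higher one. The fit pooled the spread of both assays for each gene, which assumes that RNA-seq and Ribo-seq vary equally between replicates. Centred log2 levels were 3.22 and 3.40 for mRNA and 6.06 and 6.26 for RPF, so that the assays were far apart compared with the replicates. Without either RNA-seq library, the difference was 2.76 or 2.94, but no gene passed, and the adjusted p for H2afx was 0.309 or 0.327.

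The replication-dependent histones showed the same direction, as seen in the scatter plot of all tested genes. Of the 58 genes with a Hist symbol that were tested, 56 had higher RPF and 0 had lower RPF, with a median log2 difference of 5.01. For the H2A genes among them, 12 of 14 passed as higher and the median was 2.60, next to 2.85 for H2afx. The RPF levels of the genes that share windows with H2afx, such as Hist1h2ab (1565 and 1938 FPKM) and Hist1h2ac (1207 and 1311 FPKM), were close to that of H2afx, and their mRNA levels were 148 and 105 FPKM and 65.5 and 77.0 FPKM. Many of these genes are near-identical copies, and how reads were divided among them, or between them and H2afx, was not tested. RNA-seq here captured polyA RNA and Ribo-seq total RNA, so a lower capture of mRNAs without a poly(A) tail and a higher ribosome load cannot be told apart. The 12 other listed genes with the stem-loop consensus, a group set up after the values were seen, included only 3 tested genes, of which 1 had higher RPF.

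**Figure D4:**
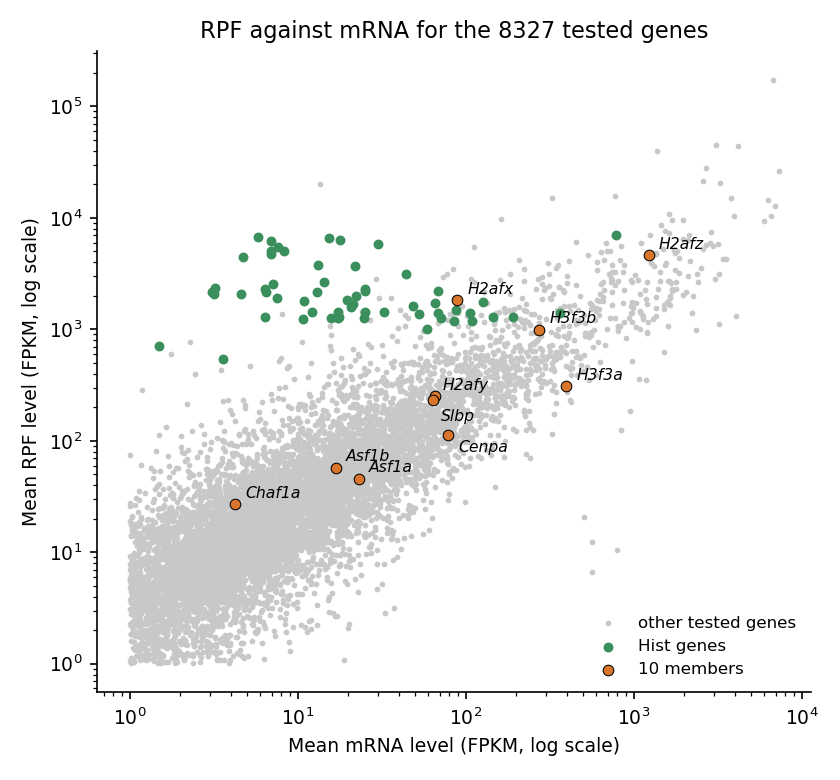
Mean RPF level against mean mRNA level in FPKM (both axes on log scales, means of 2 libraries) for 8327 tested genes (grey), genes with a Hist symbol (green), and the 10 members (orange). H2afx lies among the Hist genes, above the main cloud, H3f3a lies at the lower edge of the cloud, and the other members lie within it.

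For H3f3a, the log2 difference was -1.91 (SE 0.38, adjusted p = 0.052 with limma), and 573 tested genes had a lower one. Centred log2 levels were 5.47 and 5.45 for mRNA and 3.13 and 3.97 for RPF. It passed as lower under 7 of 13 alternatives, with values from -1.54 to -2.55, and did not pass in the others. Without centring it was -0.41 (adjusted p = 0.392 with limma). Adding the FPKM of H3f3c, an alternative chosen after seeing the data, brought the difference to -1.38 (adjusted p = 0.0701 with limma). H3f3c made up 3.77% and 4.10% of the sum for mRNA but 37.5% and 29.8% for RPF. Whether reads that fit many places were lost from H3f3a was not tested.

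H3f3b, with the same protein, had a log2 difference of 0.37 (SE 0.25, adjusted p = 0.35). Within each library, the ratio of H3f3b to H3f3a was 0.635 and 0.739 for mRNA and 4.19 and 2.65 for RPF. On the log2 scale, the ratio was -0.55 ± 0.16 (SD, n = 2) for mRNA and 1.74 ± 0.47 for RPF, a difference of 2.28. An exact two-sided permutation test gave p = 0.333, the smallest this test can give with 2 against 2 libraries (adjusted 0.333 over 3 pairs), so it cannot inform here, and the ratio is given as a description. With H3f3c added to H3f3a, the ratio was 0.611 and 0.709 for mRNA and 2.62 and 1.86 for RPF, on either side of 1. H3f3c is only 1 of the places that fit H3f3a windows (median 15), and the others were not added. How far the division of reads among them shaped the ratio was not tested.

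**Figure D5:**
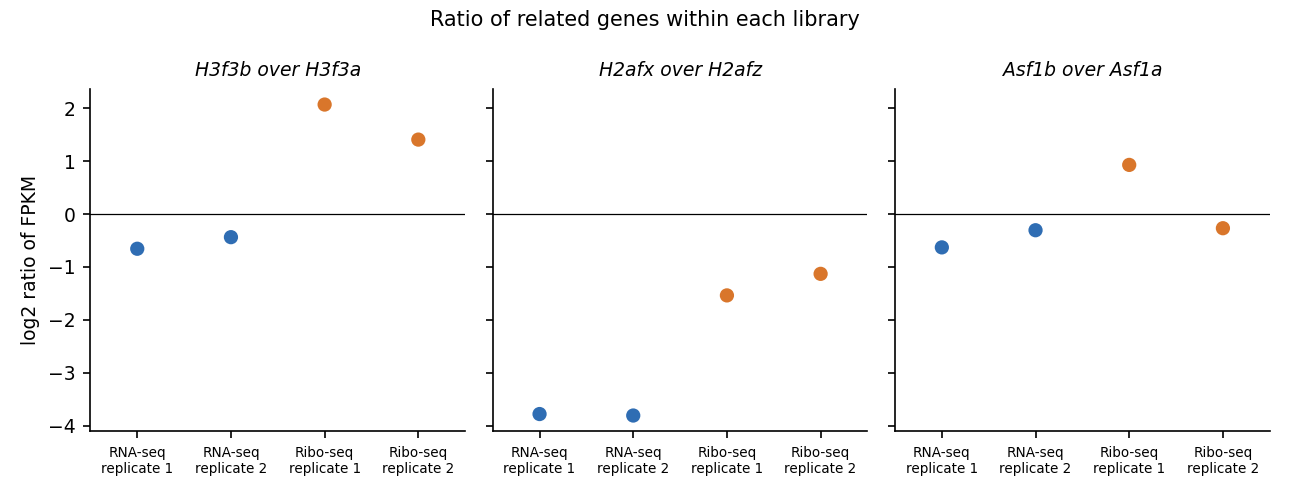
The log2 ratio of FPKM within each library (vertical axis, 1 point per library) for H3f3b over H3f3a, H2afx over H2afz, and Asf1b over Asf1a in RNA-seq (blue) and Ribo-seq (orange). The ratio of H3f3b to H3f3a is below 0 in both RNA-seq libraries and above 0 in both Ribo-seq libraries, and that of Asf1b to Asf1a changes sign between the Ribo-seq libraries.

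The ratio of H2afx to H2afz, both H2A variants (63.7% identical over aligned residues), was 0.0729 and 0.0715 for mRNA and 0.345 and 0.457 for RPF. This was a log2 difference of 2.46 between the assays, with no overlap between them. H2afz itself had a log2 difference of 0.41 (SE 0.26), which did not pass. The ratio of Asf1b to Asf1a was 0.646 and 0.809 for mRNA and 1.90 and 0.830 for RPF, and its assays were 0.80 apart on the log2 scale with the RPF values on both sides of equality.

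Of the remaining members, Chaf1a had the highest difference, at 0.92 (SE 0.27, adjusted p = 0.0969 with limma), and Cenpa the lowest, at -0.90 (SE 0.47, adjusted p = 0.243). The wide error of Cenpa came with its 2.15-fold gap between RNA-seq libraries. H2afy (0.44, SE 0.30), Slbp (0.35, SE 0.28), Asf1b (0.19, SE 0.32), and Asf1a (-0.58, SE 0.33) were all under 1 in size.

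The FPKM themselves depend on an assumed fragment length. Cufflinks by default takes fragments of 200 ± 80 bases, longer than footprints, which shortens the effective length and raises the FPKM of short coding sequences most. Relative to 28-base footprints, this raised RPF 1.91-fold for H2afz (387 coding bases), 1.82-fold for H3f3a and H3f3b, and 1.75-fold for H2afx (432 bases), but only 1.07-fold for Chaf1a. Rescaled RPF levels were 2417 FPKM for H2afz, 1044 for H2afx, 548 for H3f3b, and 170 for H3f3a, as means of 2 libraries. The order of RPF was then H2afz, H2afx, H3f3b, H2afy, Slbp, H3f3a, Cenpa, Asf1b, Asf1a, and Chaf1a, over a 95.5-fold range instead of 171-fold. H3f3a thus moved behind H2afy and Slbp, and 4 of 9 neighbouring pairs overlapped, H2afy with Slbp, Slbp with H3f3a, Asf1b with Asf1a, and Asf1a with Chaf1a. The log2 difference was then 2.27 for H2afx (adjusted p = 0.0253 with limma) and -2.55 for H3f3a (adjusted p = 0.0344), which both passed. The differences of H2afz (-0.31), H3f3b (-0.27), and Asf1b (-0.09) changed sign and did not pass in either version. Cenpa (-1.55, adjusted p = 0.0947) and Chaf1a (1.04, adjusted p = 0.0721, both with limma) went beyond 1 in size and did not pass. As deposited, 153 of 712 tested genes with at most 500 coding bases (21.5%) had higher RPF, compared with 339 of 6717 longer ones (5.05%). The length classes were set up after the values were seen. Hist genes, of which 56 of 58 tested had higher RPF, were not set apart in them. The classes were not counted after rescaling.

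Genes that work with the members were examined in 7 lists. As for H2afx, none of the genes named in them passed without RNA-seq replicate 1 or without RNA-seq replicate 2. Among other replication-independent histone variants, 3 of 5 tested genes had higher RPF and 0 had lower RPF. H2afj, encoding H2A.J, had 48.8 and 38.7 FPKM of mRNA and 1098 and 1037 FPKM of RPF, a log2 difference of 3.08 (SE 0.26, adjusted p = 0.0196 with limma). Whether H2afj shares windows with other H2A genes was not examined. H1fx, a linker histone, had 1.45 and 0.878 FPKM of mRNA and 36.0 and 85.1 FPKM of RPF. The third was H3f3c (log2 difference 1.63), which cannot be fully separated from H3f3a. H2afv, encoding a second H2A.Z, was at 50.8 and 58.2 FPKM of mRNA and 264 and 334 FPKM of RPF, and did not pass. H1foo, the oocyte linker histone, was listed at 0 in all libraries, and H2afy2 had at most 2.04 FPKM.

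Partners of H2A.Z included the gene with the highest difference in these lists. Anp32e, whose product removes H2A.Z from nucleosomes, had 7.49 and 8.43 FPKM of mRNA but 619 and 484 FPKM of RPF, a log2 difference of 4.44 (SE 0.26, adjusted p = 0.0131 with limma). Of the 11 genes for H2A.Z exchange, Anp32e was the only higher one and Yeats4, a subunit shared by the SRCAP and p400 complexes, was the only lower one (-1.45, adjusted p = 0.0425). The remaining 9 did not pass, among them the ATPases Srcap (2.89 and 2.10 FPKM of mRNA, 4.15 and 4.60 FPKM of RPF) and Ep400 (3.15 and 2.88 FPKM of mRNA, 9.09 and 3.47 FPKM of RPF). Ruvbl2, an ATPase of both complexes, had the second highest RPF level of this list, at 190 and 196 FPKM.

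Genes for H3.3 deposition were low, and 0 of 5 tested passed in either direction (limma, 1 with an unadjusted p under 0.05, median difference -0.72). Daxx had 2.16 and 2.11 FPKM of mRNA and 14.8 and 10.2 FPKM of RPF, and Atrx, its partner, had 6.89 and 6.82 FPKM of mRNA and 12.1 and 14.5 FPKM of RPF. Cabin1 and Ubn1, which act with HIRA, had the lowest RPF levels of the list, at 2.06 and 3.24 FPKM and at 1.80 and 3.97 FPKM. At the fragment length assumed here, these rest on few footprints.

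Around the H3-H4 chaperones, 1 of 7 tested genes had higher RPF and 0 had lower RPF. This was Rbbp4, encoding the small CAF-1 subunit, with 29.3 and 28.2 FPKM of mRNA and 212 and 203 FPKM of RPF (log2 difference 1.31, adjusted p = 0.0467 with limma). Its paralog Rbbp7 (402 and 236 FPKM of RPF) and the H3-H4 chaperone gene Nasp (352 and 277 FPKM of RPF) had the highest RPF levels and did not pass. Tonsl and Cdan1 had the lowest, at 6.72 and 5.29 FPKM and at 3.45 and 5.27 FPKM.

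For CENP-A, the chaperone gene passed the test and the histone gene did not. Hjurp, encoding the CENP-A chaperone, had 2.49 and 2.55 FPKM of mRNA and 60.2 and 82.9 FPKM of RPF, a log2 difference of 2.85 (SE 0.30, adjusted p = 0.0247 with limma). Cenpa had far more mRNA and a difference of -0.90 that did not pass; the difference between the 2 genes was not tested. Oip5, which takes part in CENP-A loading, had 34.9 and 37.9 FPKM of mRNA and 73.3 and 51.3 FPKM of RPF and did not pass. The centromere genes Cenpc1 and Cenpb had the lowest RPF levels, at 5.40 and 1.79 FPKM and at 0 and 0.967 FPKM.

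Among FACT, nucleoplasmin, and NAP1 family genes, 3 of 6 tested had higher RPF and 0 had lower RPF. These were the nucleoplasmin gene Npm3 (log2 difference 3.37, adjusted p = 0.0225 with limma) and the H2A-H2B chaperone genes Nap1l1 (1.95) and Nap1l4 (1.51). Npm1 and Set had the highest RPF levels, at 2090 and 2429 FPKM and at 1099 and 1234 FPKM. The FACT gene Ssrp1 had 138 and 148 FPKM of RPF, and the oocyte gene Npm2 had at most 1.63 FPKM in any library.

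Among genes for histone pre-mRNA 3′ end processing, in which Slbp acts, 0 of 8 tested had higher RPF and 1 had lower RPF. This was Casp8ap2, which encodes FLASH, with 3.14 and 5.30 FPKM of mRNA and 2.96 and 1.81 FPKM of RPF (log2 difference -2.12, adjusted p = 0.0408 with limma). Cpsf3, encoding the endonuclease, had 71.6 and 70.0 FPKM of RPF, and Cstf2 had 65.0 and 45.0 FPKM. Zfp473, which encodes a protein bound to the U7 snRNP, was listed at 0 in both Ribo-seq libraries. Slbp thus had the highest RPF level of this group, at 219 and 244 FPKM. Over the 7 lists, 9 of 48 tested genes (18.8%) had higher RPF and 3 had lower RPF, compared with 6.65% and 5.31% of all tested genes, and the median difference was -0.17, compared with -0.24.

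The gene whose levels in the 4 libraries came nearest to each member was found by the distance over log2(FPKM+1). These were Atp5md for H2afz, Gtf2h5 for H2afx, Ctnna1 for H2afy, Ndufs7 for H3f3a, Ass1 for H3f3b, Parl for Cenpa, Zwint for Slbp, Mterf4 for Asf1a, Tex19.1 for Asf1b, and Aagab for Chaf1a. The distances ran from 0.05 log2 units for Mterf4 to 0.61 for Parl. Gtf2h5, encoding a subunit of TFIIH, had 87.1 and 83.6 FPKM of mRNA and 1650 and 2204 FPKM of RPF, much as H2afx.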

How the data were processed

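The authors deposited FPKM per gene and library. Per the labels and methods, reads were trimmed (Trim Galore 0.4.2 or cutadapt 1.14), rRNA reads were removed from Ribo-seq with Bowtie2 2.2.2, and reads were mapped to mm9 with STAR 2.5.3a. Cufflinks 2.2.1 gave FPKM for transcripts in RNA-seq and coding sequences in Ribo-seq. Counts were not used here.

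A repeated symbol took its highest FPKM. RPF and mRNA were compared with limma 3.58.1 (R 4.3.3) on log2(FPKM+1), so changes of low genes are understated, for genes with a mean of at least 1 FPKM in both assays. On simulated data for this comparison, 100.0% of 200 genes changed by 3 on the log2 scale were recovered among 8327. The changed genes were drawn from those with higher mRNA levels, and the noise was normal with a spread smoothed over level. Recovery of smaller changes and of low genes was not tested. Depth was implied from low values, assuming effective lengths with fragments of 200 ± 80 bases. Gene models came from GENCODE vM1 on NCBIM37. Other steps used Python 3.11.15, numpy 2.4.6, scipy 1.17.1, pandas 2.3.3, numba 0.67.0, Biopython 1.88, and matplotlib 3.10.9.

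The members and lists were chosen with earlier results of these data known. Named genes were the members, the gene nearest to each, and, per list, the 2 highest and 2 lowest by RPF and those past the threshold (all if at most 4). Further genes (the Hist genes, H3f3c, and genes overlapping a member) were singled out once values had been seen. Alternatives were other pseudocounts, filters, scalings, and fits, and each library left out. A result of the CENP-A list is not reported here.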

Additional observations from a re-analysis of the deposited data

How the results depend on the processing

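The number of genes past the threshold (996) changed with the filter, the scaling, and the libraries used. It was 462 with a pseudocount of 0.1 FPKM, 4492 without a filter on low values, 4178 without centring, and 1577 with a limma trend. Leaving out 1 library gave between 0 (either RNA-seq library, where 1279 and 1244 genes still had an unadjusted p under 0.05) and 2827 genes (2819 and 2827 without a Ribo-seq library), and the lone library is then assumed to vary like the other assay's. Without the filter, 31.1% of the genes that passed had higher RPF, compared with 55.6% in the main comparison, 66.7% with the lower pseudocount, 98.4% without centring, and 45.2% with a minimum of 5 FPKM. The share was 41.6% and 42.0% without Ribo-seq replicates 1 and 2.

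The number of members past the threshold (1) was 2 with a minimum of 5 FPKM (H2afx and H3f3a), with quantile normalization, with a limma trend, and with rescaled footprints. It was 3 without a filter and 7 without centring, and between 0 and 3 with 1 library left out. Of 139 member differences under alternatives (13 planned and 1 added, with H3f3c), 114 kept their direction and side of the threshold. The block, the trend, and summed symbols left the differences unchanged or nearly so. Adding H3f3c could move only that of H3f3a by more than a trace. The count of 114 is therefore no measure of stability. H2afx was higher in all 13 alternatives (2.27 to 4.35) and passed in 10 of them. Signs turned for H2afz (-0.31), H3f3b (-0.27), and Asf1b (-0.09) with rescaled footprints, for H3f3b (-0.12) with quantile normalization, for Cenpa (0.60) and Asf1a (0.92) without centring, and for Asf1b without Ribo-seq replicate 1 (range -0.11 to 0.43 with 1 library left out). None of these passed. The cause was not tested.

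Rescaling to 28-base footprints lowered mean RPF by its construction, to 2417 (H2afz), 1044 (H2afx), 212 (H2afy), 170 (H3f3a), 548 (H3f3b), 61.6 (Cenpa), 181 (Slbp), 32.2 (Asf1a), and 40.3 FPKM (Asf1b). Leaving out 1 of 2 libraries or summing repeated symbols cannot move a level by 1 SD here, so neither bears on stability.

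With the replicate number as a block, 0 genes and 0 members passed (limma), 2594 genes had an unadjusted p under 0.05, and the adjusted p for H2afx was 0.101. Deviations of same-numbered libraries had a correlation of 0.01 over genes. With 2 libraries per assay, this cannot show whether same-numbered libraries came from the same embryos. Few footprints limit Cenpa, Asf1a, and Asf1b.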
